A study of Mus musculus with 9 samples.

Results

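Gene expression in cells carrying S100a8 changed at residue 67, the group OEA8_67, was compared with that in the overexpression control, the group OEA8_Ctrl, over every gene with a mean of at least 0.5 FPKM in the 6 libraries of both groups. This rule took 12011 of the 19240 genes in the table. FPKM, the unit of the table, divides a gene's fragments by its transcript length and by all fragments mapped in that library, so a value is a share of the library and not an amount per cell. The study is about S100A8, a small calcium-binding protein that is released as an alarm signal in inflamed and ageing tissue, and it changed residues 67 and 69 because docking placed glycyrrhizic acid, a licorice compound, beside them. There were 3 libraries of OEA8_67 and 3 of OEA8_Ctrl, and 3 libraries of OEA8_69, in which residue 69 was changed, entered the model only to help estimate the spread. Per the study's methods the cells were mouse embryonic fibroblasts that received the construct by lentivirus and were selected with puromycin, whereas the sample labels name hematopoietic stem cells. The study describes the control of these mutants as cells overexpressing S100a8, and the labels do not say whether the construct of OEA8_Ctrl carried the unmutated gene. No drug treatment is given for either group. The labels do not state whether separate cultures stood behind the 3 libraries of each group, so every p-value here measures the spread among libraries alone, and that spread may be technical.

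Fibroblasts make the matrix of connective tissue, the collagens, proteoglycans and adhesive glycoproteins around the cells, as well as the proteases that cut it. They also send growth factors, cytokines and chemokines to their neighbours, and in culture they divide when serum is present. The account below goes through these roles in turn, then through growth and division, and last through interferon-stimulated genes and a pattern along the chromosomes.

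The targeted gene is given first. Both groups are labelled as overexpression and no library without a construct was compared, so its level cannot check the labels. S100a8 had 5.95, 4.54 and 6.24 FPKM in the OEA8_67 libraries, against 4.10, 3.98 and 6.0 FPKM in the OEA8_Ctrl libraries. The groups overlapped, with means of 5.58 ± 0.909 FPKM in OEA8_67 and 4.69 ± 1.13 FPKM in OEA8_Ctrl (SD, n = 3 each) and a difference of 0.22 on the log2(FPKM + 1) scale (limma adjusted p = 0.448). By mean level over these libraries, 27.8% of the tested genes lay below S100a8. Its partner S100a9 was listed at 0 in every library compared but replicate 2 of OEA8_Ctrl, which had 0.11 FPKM. FPKM per gene does not show which residue the transcript encodes.

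Fibroblast markers were high in both groups. Of 19 fibroblast markers in the table, 18 were at 1 FPKM or more on average, the median marker was at 219 FPKM, and their sum was 7438 to 7668 FPKM in OEA8_67 and 7978 to 8272 FPKM in OEA8_Ctrl. At a limma adjusted p under 0.05, 6 of the 18 tested fibroblast markers were lower in OEA8_67 and 1 was higher. Over all tested genes, 4.75% were lower and 3.25% higher at that limit. Of 23 markers of hematopoietic stem and progenitor cells, 8 were at 1 FPKM or more, and Ptprc and Kit, which define those cells, were at or near 0. The libraries summed to between 469909 and 501342 FPKM, and those of one group correlated with r between 0.9947 and 0.9974 over the tested genes.

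At a limma adjusted p under 0.05, 960 of the 12011 genes were called, which is 7.99%. Of these, 390 were higher in OEA8_67 (3.25%) and 570 were lower (4.75%), and with median-of-ratios scaling in place of the deposited scaling the split was 295 higher and 670 lower. The decreases were the larger changes. The 390 increases had a median of 0.24 on the log2 scale and reached 0.78 at most, and 7 of them were 0.5 or more. The 570 decreases had a median of -0.35 and reached -3.46, 170 of them were -0.5 or less, and all 48 called genes with a change of at least 1 were lower in OEA8_67. The OEA8_67 and OEA8_Ctrl libraries did not overlap for 28.3% of the tested genes, and for each of the 960 called genes. At an unadjusted p under 0.05 in limma, 1640 of the 12011 genes were higher and 1344 were lower. Unadjusted counts of the lists below have to be read against these. Summed over the called genes, the increases held 10626 to 10779 FPKM in the OEA8_67 libraries, against 9002 to 9192 FPKM in the OEA8_Ctrl libraries, and the decreases held 22226 to 22654 FPKM in the OEA8_67 libraries, against 27408 to 28941 FPKM in the OEA8_Ctrl libraries. The number of calls depended on single libraries: it was 616, 471 and 526 without OEA8_67 replicate 1, 2 or 3, and 614 without OEA8_Ctrl replicate 1. Fold changes here are differences of log2(FPKM + 1), which understates the change of genes of low level, and the genes named below kept their call under each of the 19 alternative settings in which they were tested, unless another count is given. Genes with a mean under 5 FPKM were not tested in 1 of these settings, the filter at 5 FPKM.

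**Figure D1:**
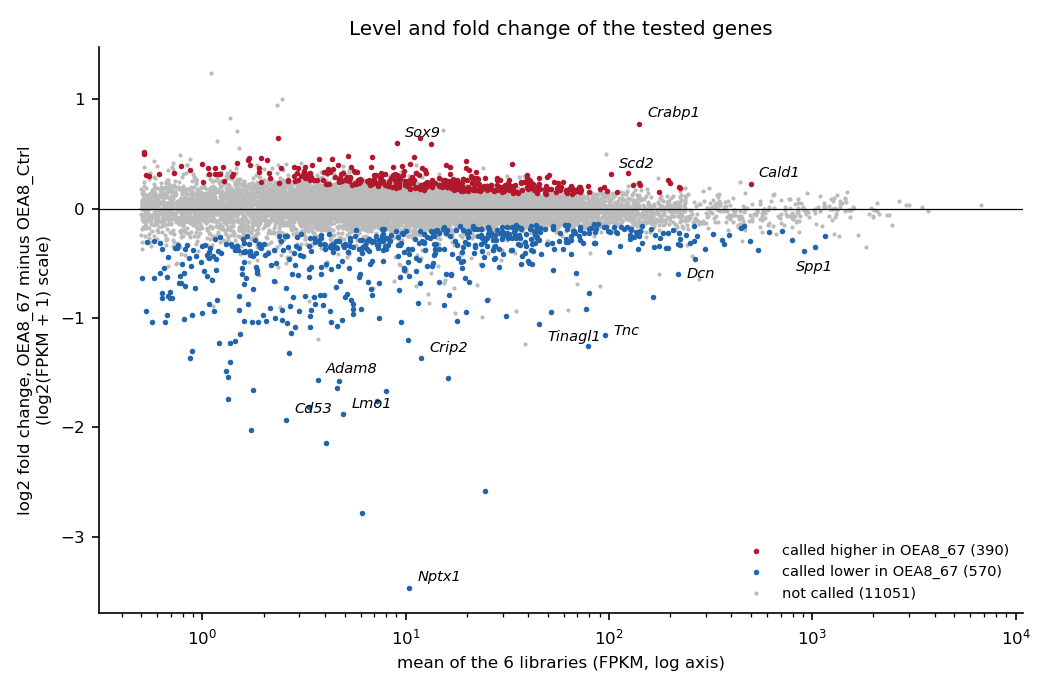
Each point is 1 of the 12011 tested genes, with its mean level over the 6 libraries in FPKM on a log axis and the log2 fold change of OEA8_67 over OEA8_Ctrl on the vertical axis. The 570 genes called lower reach down to -3.46, the 390 called higher reach up to 0.78, and the other points form a band around 0.

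Outside the endothelial-associated genes, the steepest decreases were of genes with different roles. Nptx1, a secreted pentraxin best known at synapses, had 0.88, 0.75 and 1.07 FPKM in the OEA8_67 libraries, against 21.7, 20.02 and 18.1 FPKM in the OEA8_Ctrl libraries (log2 fold change -3.46 ± 0.09 SE, limma adjusted p = 1.53e-09). Cd53, a tetraspanin of leukocytes, had 0.40, 0.50 and 0.56 FPKM in OEA8_67, against 5.02, 4.67 and 4.29 FPKM in OEA8_Ctrl (-1.93 ± 0.08, limma adjusted p = 3.04e-08). For both, the highest OEA8_67 library was several times below the lowest OEA8_Ctrl library. Further genes that fell by more than 1 on the log2 scale were Crip2, a LIM protein (-1.36 ± 0.06), Slc39a4, a zinc importer (-1.32 ± 0.12), Alox5ap, which hands arachidonic acid to the leukotriene pathway (-1.23 ± 0.10), Gngt2, a G protein gamma subunit (-1.13 ± 0.15), Gda, a guanine deaminase (-1.08 ± 0.10), and Glipr1 (-1.05 ± 0.08). The endothelial-associated genes that share this range of change are set aside here but for their count: 22 of 23 tested members fell, with a median of -1.30, and 0 rose. Of the 41 members in the table, these 23 passed the filter on the mean of both groups. A member that passed through OEA8_Ctrl alone could only be lower in OEA8_67. The list was also chosen with earlier results of these data known, so the count is a description. The summed level of the 19 endothelial markers was 37.6 to 39.1 FPKM in OEA8_67 and 109 to 113 FPKM in OEA8_Ctrl. Hematopoietic stem and progenitor markers summed to 223 to 235 FPKM in OEA8_67 and 339 to 359 FPKM in OEA8_Ctrl, mostly Ly6a and Cd34. Of the 9 tested hematopoietic markers, 4 fell and 1 rose. The increase was of Gata2, with means of 48.2 FPKM in OEA8_67 and 41.7 FPKM in OEA8_Ctrl. Its call under the alternatives is not given here. In bulk libraries, fewer cells of a type and less RNA per cell cannot be told apart, and the part of these markers in the results below was not tested.

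Several genes of the extracellular matrix fell, and its main fibrillar collagens were not called. Of 27 tested collagen chains, 9 fell and 0 rose, with a median of -0.16, against a median of 0.02 over all tested genes, and at an unadjusted p under 0.05 in limma, 15 were lower and 1 higher. The decreases were mainly in basement membrane and beaded filament chains and in transmembrane chains of low level. Col4a1, a basement membrane chain, had 195, 196 and 191 FPKM in the OEA8_67 libraries, against 250.5, 247 and 233 FPKM in the OEA8_Ctrl libraries (-0.32 ± 0.04, limma adjusted p = 0.000413). Its partner Col4a2, which is read from the same head-to-head locus on chromosome 8, had 174, 175 and 165 FPKM in OEA8_67, against 229, 217 and 215 FPKM in OEA8_Ctrl (-0.36 ± 0.05). The beaded filament chains Col6a1 (-0.24 ± 0.04) and Col6a3 (-0.33 ± 0.05) and the transmembrane collagens Col13a1 (-0.94 ± 0.07) and Col23a1 (-0.93 ± 0.10) fell as well. Col1a1, the most common fibrillar chain, had 992, 1055 and 985 FPKM in OEA8_67, against 1038, 985 and 1039 FPKM in OEA8_Ctrl, so the groups overlapped (-0.01 ± 0.05, limma adjusted p = 0.882). Col1a2 likewise differed by -0.01 ± 0.05 (limma adjusted p = 0.87). These 2 chains are named as fibroblast markers.

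Among the adhesive and regulatory proteins of the matrix, 11 of 41 tested matrix glycoproteins fell and 2 rose, with a median of -0.09. Tnc, tenascin C, a glycoprotein of wounds and developing tissue, had 56.9, 61.2 and 57.9 FPKM in the OEA8_67 libraries, against 140.3, 136 and 119 FPKM in the OEA8_Ctrl libraries (-1.15 ± 0.06, limma adjusted p = 2.42e-07). It was the most abundant of the 48 genes that fell by at least 1 on the log2 scale. Ccn5, a matricellular growth inhibitor, fell by 0.77 on the log2 scale (SE 0.05), Emilin2 by 0.63 (SE 0.05), and Cthrc1, a secreted regulator of collagen deposition, by 0.79 (SE 0.07). Postn, periostin, an adhesive protein of healing tissue, had 219.8, 220.4 and 225 FPKM in OEA8_67, against 314, 307 and 295 FPKM in OEA8_Ctrl (-0.46 ± 0.04, limma adjusted p = 1.84e-05). Spp1, osteopontin, had 775, 776 and 830.0 FPKM in OEA8_67, against 1032, 1041 and 1028 FPKM in OEA8_Ctrl (-0.38 ± 0.05, limma adjusted p = 0.000271). In each of these genes, as in every called gene that fell, the OEA8_67 libraries were all below the OEA8_Ctrl libraries. The 2 members that rose, Fbln2 and Tgfbi, lie outside the rule for named genes and are given because they are so few, with log2 fold changes of 0.26 ± 0.04 and 0.16 ± 0.04. Only 1 of them was called without OEA8_67 replicate 3 or without OEA8_Ctrl replicate 2. The same count held with only the 2 groups in the model and without a trend in the moderated test. Tinagl1, a basement membrane protein outside the list, had 28.4, 30.6 and 28.2 FPKM in OEA8_67, against 61.4, 61.2 and 61.8 FPKM in OEA8_Ctrl (-1.06 ± 0.04).

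Proteoglycans moved in both directions. Of 29 tested members of the proteoglycan and hyaluronan list, 8 fell and 3 rose, with a median of -0.04. The decreases were mainly in the small leucine-rich proteoglycans, which bind collagen fibrils and set their width. Dcn, decorin, had 179.5, 171 and 173 FPKM in the OEA8_67 libraries, against 265, 259.8 and 269 FPKM in the OEA8_Ctrl libraries (-0.60 ± 0.04, limma adjusted p = 4.18e-06). Fmod, fibromodulin, fell by 0.83 on the log2 scale (SE 0.05), Lum, lumican, by 0.56 (SE 0.09), and Prelp by 0.31 (SE 0.05). The increases were in the large hydrated matrix. Has2, which makes hyaluronan, had 16.7, 18.1 and 19.7 FPKM in OEA8_67, against 12.9, 14.7 and 12.8 FPKM in OEA8_Ctrl (0.40 ± 0.07, limma adjusted p = 0.00295), and Vcan, versican, which binds it, rose by 0.45 ± 0.06 (limma adjusted p = 0.000361). The third, Cspg4, a transmembrane proteoglycan, lost its call under 5 of the 18 alternatives in which it was tested. Among 15 tested integrins, the receptors that hold cells to the matrix, Itga4, Itga6 and Itga11 fell (log2 fold changes of -0.40, -0.55 and -0.52) and 0 rose, and 5 fell without OEA8_Ctrl replicate 3.

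**Figure D2:**
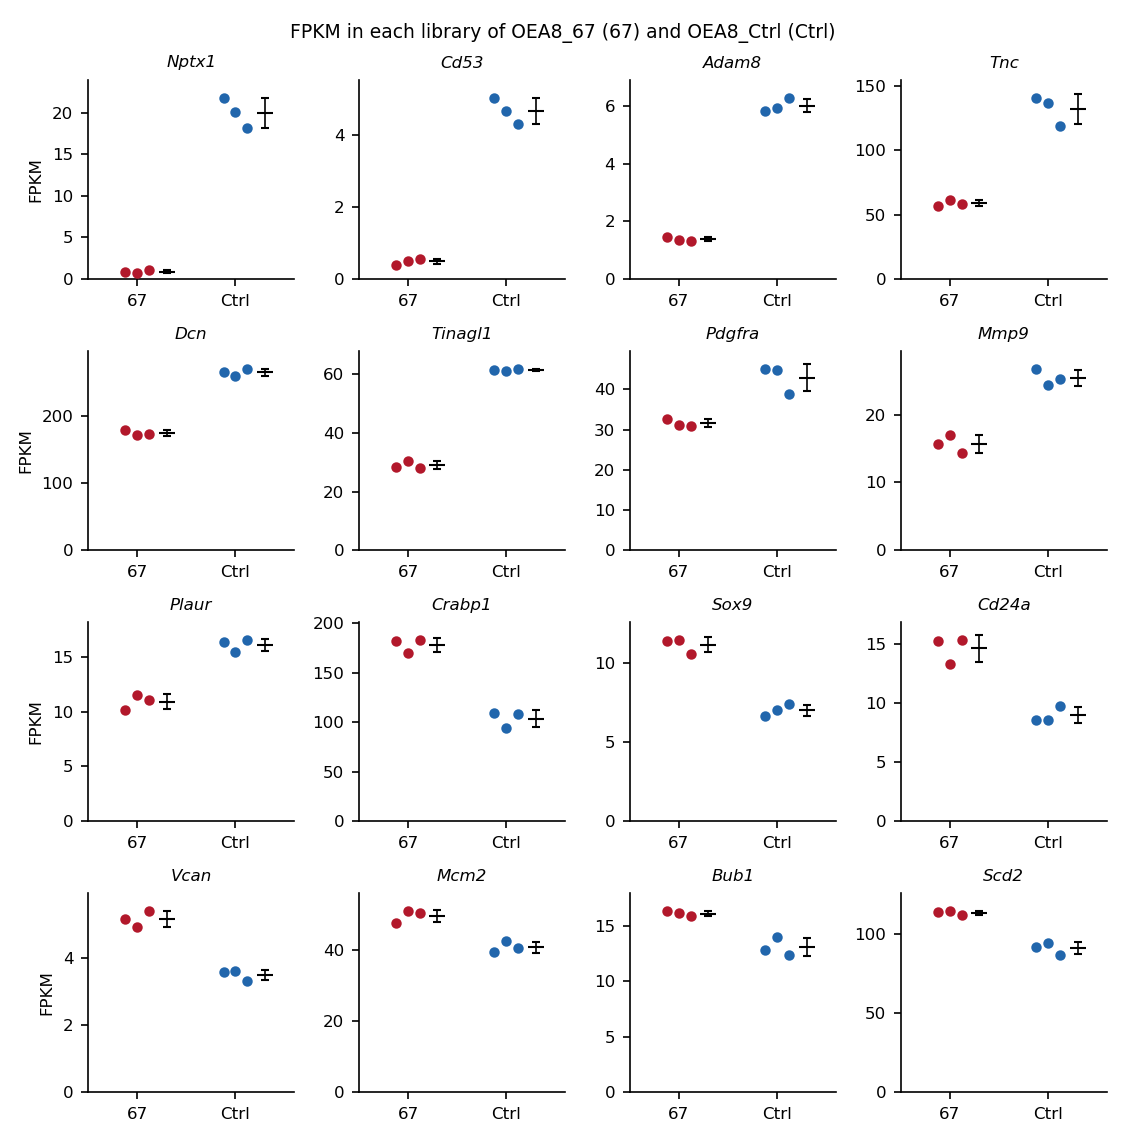
FPKM of 16 genes in each library, with OEA8_67 to the left of OEA8_Ctrl in every panel, points for the 3 libraries of a group and a bar for the mean with its SD. In each panel the groups do not overlap, as for every called gene. Nptx1 shows the widest gap, with at most 1.07 FPKM in OEA8_67 and at least 18.1 FPKM in OEA8_Ctrl.

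Enzymes that cut the matrix were also among the genes that fell. Of 40 tested metalloproteinases and inhibitors, 10 fell and 1 rose, with a median of -0.09, and of 24 tested members of the plasminogen system and serpins, 5 fell and 0 rose, with a median of -0.12. At an unadjusted p under 0.05 in limma, 16 genes of the first list were lower and 3 higher, and 11 of the other were lower and 0 higher. Adam8, a membrane-bound sheddase, had 1.45, 1.36 and 1.32 FPKM in the OEA8_67 libraries, against 5.84, 5.94 and 6.28 FPKM in the OEA8_Ctrl libraries (-1.56 ± 0.06, limma adjusted p = 2.22e-08). Mmp9, a gelatinase, had 15.7, 16.9 and 14.4 FPKM in OEA8_67, against 26.7, 24.4 and 25.3 FPKM in OEA8_Ctrl (-0.67 ± 0.06, limma adjusted p = 2.29e-05). The collagenases Mmp1a (-1.14 ± 0.10) and Mmp13 (-0.47 ± 0.06) and the stromelysins Mmp3 (-0.31 ± 0.05) and Mmp11 (-0.32 ± 0.04) fell too. The 1 increase, Adam12, was chosen after its values were seen, with 0.29 ± 0.07 (limma adjusted p = 0.0334), and was not called without any 1 of the OEA8_67 libraries, without OEA8_Ctrl replicate 1 or 3, or without OEA8_69 replicate 3. Plaur, the cell surface receptor of urokinase, had 10.1, 11.5 and 11.1 FPKM in OEA8_67, against 16.3, 15.5 and 16.5 FPKM in OEA8_Ctrl (-0.52 ± 0.05, limma adjusted p = 8.41e-05). Its ligand Plau, urokinase, fell by 0.42 on the log2 scale (SE 0.07), so the protease and its receptor were both lower in OEA8_67. Mmp1a has a near-identical neighbour, as do the histone and glutathione transferase genes named below, and the counting could have split reads among such copies.

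The promoters of 4 protease genes are shown, chosen because they hold the AP-1 motif, the site bound by Jun and Fos proteins, close to the start. Below are the 150 bases before the RefSeq start on GRCm38.p6, read 5′ to 3′ on the strand of the gene, with the motif TGANTCA in capitals, for Mmp1a (chr9:7463991-7464140, plus strand), Mmp3 (chr9:7445672-7445821, plus), Mmp13 (chr9:7272364-7272513, plus) and Plaur (chr7:24462333-24462482, plus).
Mmp1a: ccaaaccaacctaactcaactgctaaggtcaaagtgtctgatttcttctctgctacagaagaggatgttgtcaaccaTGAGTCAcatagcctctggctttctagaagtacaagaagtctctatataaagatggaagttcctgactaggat
Mmp3: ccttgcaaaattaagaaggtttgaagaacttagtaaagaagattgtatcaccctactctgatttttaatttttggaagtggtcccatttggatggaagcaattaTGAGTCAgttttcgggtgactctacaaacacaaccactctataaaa
Mmp13: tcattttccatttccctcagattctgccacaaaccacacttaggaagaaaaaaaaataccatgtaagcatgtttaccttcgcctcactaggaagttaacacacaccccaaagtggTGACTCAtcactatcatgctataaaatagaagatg
Plaur: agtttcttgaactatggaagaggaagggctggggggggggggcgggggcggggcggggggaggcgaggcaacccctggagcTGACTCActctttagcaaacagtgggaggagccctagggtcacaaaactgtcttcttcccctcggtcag
Searched on both strands over the 250 bases before the start, TGANTCA was in 43 of 424 matched promoters of genes that fell (10.1%), in 9 of 311 of genes that rose (2.89%), in 4.23% of the 9646 tested genes that matched a promoter and in 6.75% of all 32851 promoters of the table. It was in 4 of 28 matched promoters of all tested metalloproteinases and inhibitors (14.3%) and in 3 of 9 of those that fell (33.3%), the ones printed here. A match is a description of letters and does not show binding.

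Among 48 tested growth factors and their receptors, 7 fell and 2 rose, while 27 of the 48 (56.2%) were above 0 and the median was 0.01, which became -0.01 with median-of-ratios scaling. The increases numbered 0 without OEA8_67 replicate 2 or 3, without OEA8_Ctrl replicate 1, with only the 2 groups in the model and with a replicate block, and 1 without OEA8_67 replicate 1 or without OEA8_Ctrl replicate 2 or 3. Pdgfra, the receptor that marks fibroblasts and binds platelet-derived growth factors, had 32.7, 31.1 and 30.9 FPKM in the OEA8_67 libraries, against 45.01, 44.9 and 39.0 FPKM in the OEA8_Ctrl libraries (-0.43 ± 0.06, limma adjusted p = 0.00052). Pdgfb, a ligand of this family, had 5.52, 5.53 and 5.24 FPKM in OEA8_67, against 9.62, 8.61 and 9.60 FPKM in OEA8_Ctrl (-0.68 ± 0.07, limma adjusted p = 0.000118). Ligands of the epidermal growth factor receptor were lower as well, Hbegf by 0.60 on the log2 scale (SE 0.04) and Tgfa by 0.56 (SE 0.06). Csf1, which keeps macrophages alive, had 217, 233 and 222 FPKM in OEA8_67, against 288, 273 and 276 FPKM in OEA8_Ctrl (-0.32 ± 0.04, limma adjusted p = 0.000957), and the receptor kinase Mertk fell by 0.80 on the log2 scale (SE 0.08). Feedback genes of the ERK kinases, which these receptors switch on, were split: the phosphatase Dusp1 (-0.53 ± 0.07) and the inhibitor Spry4 (-0.35 ± 0.07) fell, and the transcription factor Etv1 rose (0.33 ± 0.06). In the list of insulin-like growth factors and their binding proteins, 5 of 18 fell and 1 rose. Igf2 had 55.6, 55.5 and 53.5 FPKM in OEA8_67, against 85.8, 78.8 and 84.4 FPKM in OEA8_Ctrl (-0.59 ± 0.05, limma adjusted p = 8.05e-06), Igfbp4, which holds the ligands, fell by 0.37 on the log2 scale (SE 0.05), and Igf2bp3, which binds Igf2 transcripts, rose by 0.24 (SE 0.05). The decreases numbered 3 without OEA8_67 replicate 2 or 3 or without OEA8_Ctrl replicate 1.

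Developmental pathways had a few called members each. In the TGF-beta and BMP list, 7 of 51 fell and 1 rose, with a median of 0.01 that became -0.01 under either other scaling. Tgfb1, the ligand itself, fell by 0.38 on the log2 scale (SE 0.07), and Acvrl1, a type I receptor, by 0.46 (SE 0.08). Fst, follistatin, which traps activins, had 12.5, 12.9 and 14.4 FPKM in the OEA8_67 libraries, against 26.7, 26.9 and 25.5 FPKM in the OEA8_Ctrl libraries (-0.94 ± 0.06, limma adjusted p = 1.11e-06). In the Notch list, 4 of 26 fell and 1 rose: the receptor Notch4 (-0.98 ± 0.07), the ligand Jag1 (-0.73 ± 0.08) and the target Hes1 (-0.48 ± 0.08) fell, and Dlk2, a non-canonical ligand, rose (0.35 ± 0.06). In the Wnt list, 5 of 46 fell and 2 rose, with a median of -0.04. Among the decreases, Notum, which inactivates Wnt proteins, fell by 0.67 on the log2 scale (SE 0.08), and Rspo2, which strengthens Wnt signals, by 0.34 (SE 0.05). In the list of YAP and TEAD targets, 2 of 33 fell and 1 rose, with a median of 0.02. The increase was of Cdh2, given below. Among the decreases, Ankrd1 had 3.37, 3.79 and 3.36 FPKM in OEA8_67, against 6.24, 6.58 and 7.44 FPKM in OEA8_Ctrl (-0.78 ± 0.07, limma adjusted p = 3.04e-05). Retinoic acid, which is made from vitamin A, had 5 called genes of 22. Crabp1, which carries it in the cytosol, had 182, 171 and 183 FPKM in OEA8_67, against 109, 93.9 and 108 FPKM in OEA8_Ctrl, the largest increase of any called gene (0.78 ± 0.06, limma adjusted p = 6.19e-06). Dhrs3, which turns the precursor back to retinol (-0.86 ± 0.10), Cyp1b1, an oxidising enzyme (-0.92 ± 0.07), and Rarres1, a retinoid-responsive gene (-0.39 ± 0.07), fell.

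Further named increases had other roles. Sox9, the transcription factor of cartilage, had 11.4, 11.4 and 10.6 FPKM in OEA8_67, against 6.65, 6.99 and 7.37 FPKM in OEA8_Ctrl (0.60 ± 0.06, limma adjusted p = 3.09e-05), while the 8 chondrocyte markers together summed to 10.9 to 12 FPKM in OEA8_67 and 7.02 to 7.87 FPKM in OEA8_Ctrl, nearly all of it Sox9. Cdh2, N-cadherin, rose by 0.43, Ncam1, a neural cell adhesion molecule, by 0.41 ± 0.05, and Trpv4, a calcium channel that opens on stretch, by 0.44 ± 0.06. Cxcl3, a neutrophil-attracting chemokine, rose by 0.52, whereas the monocyte-attracting chemokines Ccl2 and Ccl8 fell by 0.29 and 0.81 on the log2 scale. Scd2, a desaturase that makes monounsaturated fatty acids, had 114, 114 and 112 FPKM in OEA8_67, against 92.2, 94.3 and 87.1 FPKM in OEA8_Ctrl (0.31 ± 0.04, limma adjusted p = 0.000398).

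Genes of cytokine reception and defence were mostly lower where they were called. Of 47 tested interleukins, interleukin receptors and members of the TNF superfamily, 11 fell and 1 rose, with a median of -0.08. Il2rg, the shared receptor chain of several interleukins, had 1.15, 0.96 and 0.92 FPKM in the OEA8_67 libraries, against 3.36, 2.55 and 2.93 FPKM in the OEA8_Ctrl libraries (-0.97 ± 0.09, limma adjusted p = 2.96e-05). Tnfrsf23, a decoy receptor, fell by 0.68 on the log2 scale (SE 0.06), Tslp, an epithelial and stromal cytokine, by 0.50 (SE 0.09), and Il13ra1 by 0.38 (SE 0.05). The increase was of Il1rn, the natural antagonist of the interleukin 1 receptor, which had 45.8, 44.1 and 44.4 FPKM in OEA8_67, against 36.3, 38.7 and 38.4 FPKM in OEA8_Ctrl (0.24 ± 0.04, limma adjusted p = 0.00377). The decreases numbered 6, 5 and 5 without OEA8_67 replicate 1, 2 or 3, 6 without OEA8_Ctrl replicate 1 and 7 without OEA8_69 replicate 2. Of 19 complement and acute-phase genes, 4 fell, among them Lbp, which carries bacterial lipopolysaccharide (-0.39 ± 0.05), C4b of complement (-0.56 ± 0.07) and Hp, haptoglobin (-0.35 ± 0.07), with a median of -0.12. Of 59 NRF2 targets and antioxidant genes, 8 fell and 1 rose, with a median of -0.07, among them Nqo1, a quinone reductase (-0.42 ± 0.06), Gstm2, a glutathione transferase (-0.42 ± 0.07), and Gpx7, a peroxidase of the secretory pathway (-0.60 ± 0.10). The antioxidant decreases numbered 5 without OEA8_67 replicate 2 and 4 without OEA8_67 replicate 3. S100a13, a relative of S100a8, fell by 0.51 on the log2 scale (SE 0.06), and Anxa8, an annexin, rose by 0.35 ± 0.05.

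**Figure D3:**
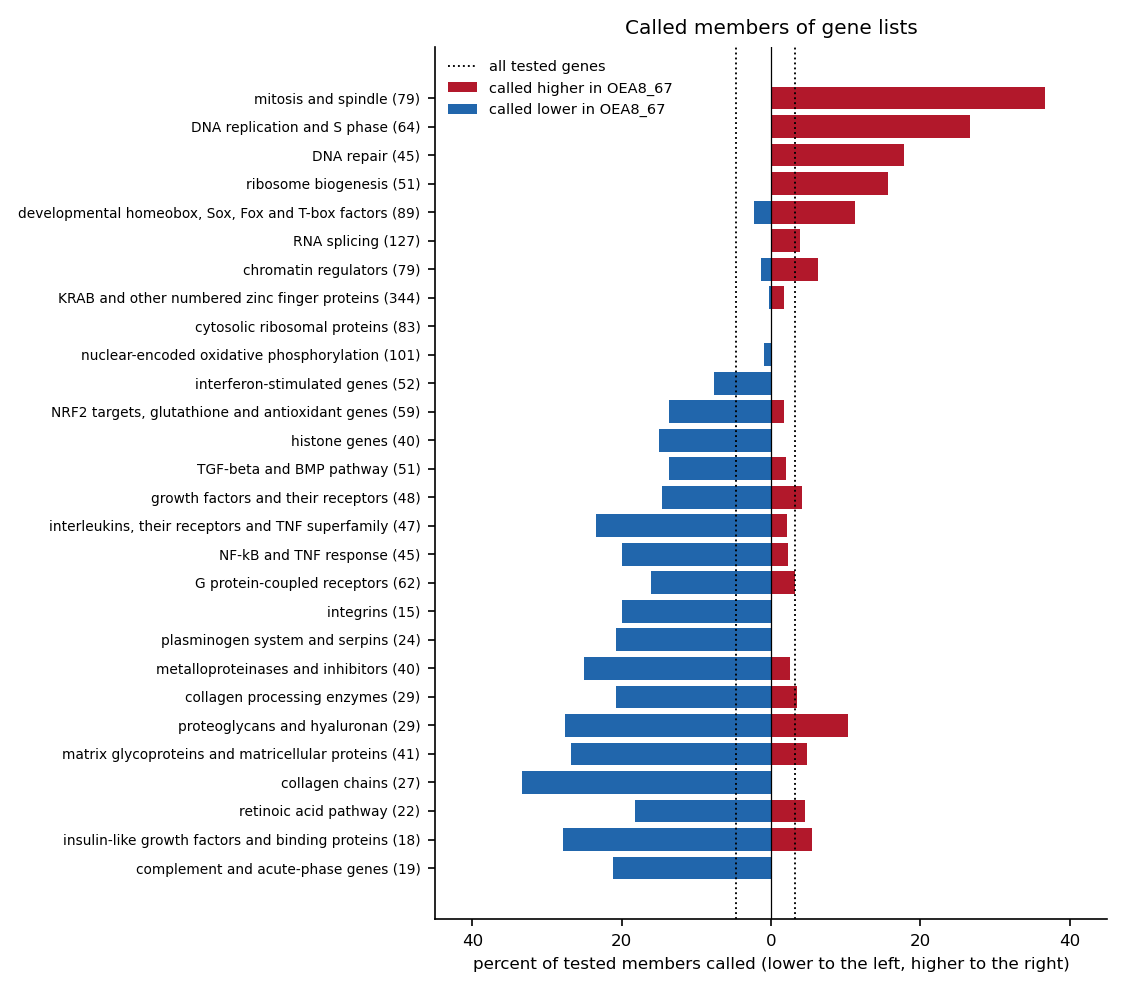
Percent of the tested members of each gene list, with the number tested in brackets, that were called higher in OEA8_67 (bars to the right) or lower in OEA8_67 (bars to the left), with dotted lines at the 3.25% and 4.75% of all tested genes. The lists of division and ribosome biogenesis have bars to the right alone, and the collagen, plasminogen, integrin and complement lists have bars to the left alone.

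Many genes of cell division rose, each by a small amount. Of 79 tested genes of mitosis and the spindle, 29 rose and 0 fell, with a median of 0.15. Of 64 genes of DNA replication and S phase, 17 rose and 0 fell, with a median of 0.13, and of 45 DNA repair genes, 8 rose and 0 fell, with a median of 0.11. At an unadjusted p under 0.05 in limma, 51 mitotic, 34 replication and 19 repair genes were higher and 0 were lower. Mki67, the proliferation antigen, had 51.7, 56.7 and 54.8 FPKM in the OEA8_67 libraries, against 45.9, 46.6 and 40.7 FPKM in the OEA8_Ctrl libraries (0.29 ± 0.05, limma adjusted p = 0.00682). Bub1, a kinase of the spindle checkpoint, had 16.3, 16.1 and 15.9 FPKM in OEA8_67, against 12.8, 13.97 and 12.4 FPKM in OEA8_Ctrl (0.28 ± 0.05, limma adjusted p = 0.00593). Kif23, a kinesin of the dividing midzone (0.27 ± 0.05), Ncapd2, a condensin subunit (0.28 ± 0.04), and Foxm1, a transcription factor of mitotic genes (0.25 ± 0.05), rose by like amounts. Of the replication genes, Mcm2 and Mcm4, subunits of the helicase, rose by 0.28 ± 0.05 and 0.30 ± 0.04, and Uhrf1, which brings the maintenance methylase to new DNA, had 35.4, 36.1 and 34.7 FPKM in OEA8_67, against 27.9, 29.7 and 30.2 FPKM in OEA8_Ctrl (0.27 ± 0.04, limma adjusted p = 0.00325). The mismatch repair gene Msh6 rose by 0.27 ± 0.05.

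These counts were among the least stable. The mitotic increases numbered 16, 12 and 10 without OEA8_67 replicate 1, 2 or 3, and 12 without OEA8_Ctrl replicate 1, and the replication increases numbered 7, 3 and 6 without OEA8_67 replicate 1, 2 or 3, and 6 without OEA8_Ctrl replicate 1. The repair increases numbered 3, 2 and 4 without OEA8_67 replicate 1, 2 or 3, 3 without OEA8_Ctrl replicate 1 or 3, and 5 without OEA8_69 replicate 1 or 2. Not every gene tied to division was higher. Ccnd1, the cyclin that starts the cycle, had 125, 129 and 128 FPKM in OEA8_67, against 148, 154 and 149 FPKM in OEA8_Ctrl (-0.24 ± 0.04, limma adjusted p = 0.00211), and the inhibitor Cdkn2b fell by 0.29 on the log2 scale (SE 0.05). Of 40 histone genes, 6 fell and 0 rose, with a median of -0.09, among them H2bc4 (-0.41 ± 0.06) and H1f2 (-0.29 ± 0.05), and 3 fell without OEA8_67 replicate 2 or without OEA8_Ctrl replicate 1 or 3.

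The promoters of 4 of the genes that rose are shown for the motifs that replication and mitotic genes are known for: the E2F site, searched as TTTNNCGC or TTNNCGCC, forms that can overlap, and the CHR element TTTGAA. Each line is the 150 bases before the RefSeq start on GRCm38.p6, 5′ to 3′ on the strand of the gene, with the E2F matches in capitals for Uhrf1 (chr17:56303187-56303336, plus strand) and Hells (chr19:38930840-38930989, plus), and the CHR matches in capitals for Mki67 (chr7:135716380-135716529, minus) and Ncapd2 (chr6:125191587-125191736, minus).
Uhrf1: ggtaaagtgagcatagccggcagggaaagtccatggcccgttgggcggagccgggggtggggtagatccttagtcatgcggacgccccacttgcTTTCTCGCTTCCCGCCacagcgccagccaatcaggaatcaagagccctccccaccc
Hells: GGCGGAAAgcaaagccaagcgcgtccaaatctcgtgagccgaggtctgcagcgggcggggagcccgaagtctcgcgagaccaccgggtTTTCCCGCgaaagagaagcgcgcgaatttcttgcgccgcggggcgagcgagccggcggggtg
Mki67: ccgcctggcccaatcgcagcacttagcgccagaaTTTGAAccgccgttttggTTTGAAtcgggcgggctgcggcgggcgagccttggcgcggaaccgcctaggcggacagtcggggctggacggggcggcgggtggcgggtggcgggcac
Ncapd2: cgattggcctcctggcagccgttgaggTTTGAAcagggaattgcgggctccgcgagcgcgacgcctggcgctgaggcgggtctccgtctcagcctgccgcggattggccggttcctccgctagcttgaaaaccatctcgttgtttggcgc
Over the 250 bases before the start and on both strands, TTTGAA was in 11 of 24 matched promoters of mitotic genes that rose (45.8%), in 24 of 67 of all tested mitotic genes (35.8%), in 10.6% of tested genes and in 16% of all promoters. The E2F motif was in 5 of 15 promoters of replication genes that rose (33.3%), in 17 of 53 of all tested replication genes (32.1%), in 16.1% of tested genes and in 9.21% of all promoters. The shares in the genes that rose therefore have to be read against those of their lists. Hells, a chromatin remodeler, had 24.99, 24.2 and 25.01 FPKM in OEA8_67, against 19.6, 21.9 and 17.1 FPKM in OEA8_Ctrl (0.33 ± 0.07, limma adjusted p = 0.0195), and its call was lost under 4 of the 19 alternatives.

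Genes of ribosome biogenesis were also higher, and those of the ribosome itself were not called. Of 51 tested genes of ribosome biogenesis, 8 rose and 0 fell (20 and 0 at an unadjusted p under 0.05), with a median of 0.10, among them Polr1a, the largest subunit of RNA polymerase I (0.26 ± 0.04, limma adjusted p = 0.00281), and Rrp12, which helps export the subunits (0.29 ± 0.05, limma adjusted p = 0.00675). The increases numbered 2 without OEA8_67 replicate 2 or 3, 3 without OEA8_Ctrl replicate 1, and 5 without OEA8_69 replicate 1 or 2. Among 83 cytosolic ribosomal protein genes, 78 mitochondrial ribosomal protein genes and 39 genes of the tricarboxylic acid cycle and mitochondrial carriers, 0 were called in either direction by limma. At an unadjusted p under 0.05, 2 cytosolic ribosomal genes were higher and 2 lower, 5 mitochondrial ribosomal genes were higher and 10 lower, and 3 genes of the cycle were higher and 5 lower. Over all 12011 tested genes, 1640 were higher and 1344 lower at that limit. Of 101 nuclear-encoded genes of oxidative phosphorylation, 0 rose and 1 fell, with a median of -0.06. At an unadjusted p under 0.05 in limma, 2 of these 101 genes were higher and 15 lower. Of 10 Hox genes tested, which record the position of fibroblasts in the body, 0 were called by limma and 1 was higher at an unadjusted p under 0.05. Of 89 developmental homeobox, Sox, Fox and T-box factors, 10 rose and 2 fell, and the increases numbered 2, 2 and 3 without OEA8_67 replicate 1, 2 or 3, and the decreases 5 without OEA8_Ctrl replicate 2 and 1 without OEA8_67 replicate 1 or OEA8_Ctrl replicate 1.

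Interferon-stimulated genes, which defend cells against viruses, differed among the libraries of OEA8_67. Of 52 tested members, 4 fell and 0 rose, with a median of -0.48, against 0.02 over all tested genes, and at an unadjusted p under 0.05, 25 were lower and 0 higher. Isg15, a ubiquitin-like protein, had 38.0, 19.6 and 13.7 FPKM in the OEA8_67 libraries, against 45.05, 63.6 and 51.1 FPKM in the OEA8_Ctrl libraries (-1.24, limma adjusted p = 0.0652), so the groups did not overlap and the test was not passed. Ifi27l2a, a mitochondrial protein induced by interferon, had 68.1, 44.5 and 30.1 FPKM in OEA8_67, against 98.1, 118 and 112 FPKM in OEA8_Ctrl (-1.26 ± 0.31, limma adjusted p = 0.0314), and its call was lost under 7 of the 19 alternatives. Bst2, which tethers virus particles, had 300.1, 193 and 168 FPKM in OEA8_67, against 336, 338 and 329 FPKM in OEA8_Ctrl (limma adjusted p = 0.115). Isg15 and Bst2 were not called and are named as high members chosen after their values were seen. Replicate 1 of OEA8_67 lay near the OEA8_Ctrl libraries and replicates 2 and 3 lay below them. With each gene set against its OEA8_Ctrl mean, the median over the 52 genes was -0.05, -0.60 and -0.79 on the log2 scale in OEA8_67 replicates 1, 2 and 3, and -0.10, 0.23 and -0.12 in OEA8_Ctrl replicates 1, 2 and 3. In OEA8_67 replicates 1, 2 and 3, the number of the 52 genes below all 3 OEA8_Ctrl libraries was 16, 50 and 51, and over the 12011 tested genes it was 2737, 3088 and 2810. Of the 100 tested genes with the largest spread among the OEA8_67 libraries, 33 were interferon-stimulated genes.

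The count of 4 therefore turned on single libraries. It was 18 without OEA8_67 replicate 1, 0 without replicate 2 and 1 without replicate 3, 1, 2 and 1 without OEA8_Ctrl replicate 1, 2 or 3, and 9 and 7 without OEA8_69 replicate 1 or 3. Of 22 genes of class I antigen presentation, 4 of which are also in the interferon list, 2 fell and 0 rose, with a median of -0.28, and 13, 19 and 19 lay below all 3 OEA8_Ctrl libraries in OEA8_67 replicates 1, 2 and 3. Their decreases numbered 8, 0 and 0 without OEA8_67 replicate 1, 2 or 3, and 1 without OEA8_Ctrl replicate 2 or 3. The promoter of Isg15 (chr4:156200819-156200968 of GRCm38.p6, minus strand) is shown for the interferon response element, searched on both strands as GAAA, a pair of any bases and GAAA again, whose overlapping matches are in capitals in the 150 bases before the RefSeq start.
Isg15: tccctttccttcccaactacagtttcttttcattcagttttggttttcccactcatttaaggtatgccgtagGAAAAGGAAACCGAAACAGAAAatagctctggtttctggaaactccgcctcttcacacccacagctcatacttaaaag
Over 250 bases, 14 of 39 matched promoters of the tested interferon-stimulated genes held this motif (35.9%), against 2.53% of tested genes and 2.98% of all promoters.

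**Figure D4:**
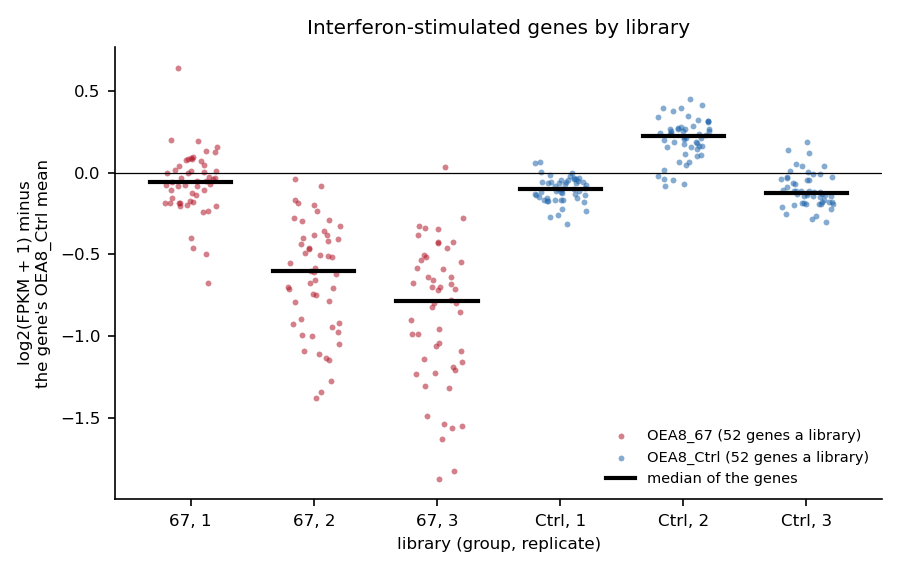
Log2(FPKM + 1) of the 52 tested interferon-stimulated genes in each library, minus the gene's mean over the OEA8_Ctrl libraries, with OEA8_67 to the left of OEA8_Ctrl, a point for each gene and a bar for the median. The medians are -0.05, -0.60 and -0.79 in OEA8_67 and -0.10, 0.23 and -0.12 in OEA8_Ctrl.

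The calls were not spread evenly over the chromosomes, which was noticed after the values were seen and is given as a description without a test. Chromosome 6 held 557 of the tested genes (4.64%), and on it 71 genes rose and 16 fell, so it held 18.2% of all increases and 2.81% of all decreases. The median log2 fold change of its 557 genes was 0.10, a ratio of 1.07, and 79.4% of them were above 0, against 54.7% of the genes elsewhere. The medians of the other 19 chromosomes lay between -0.02 and 0.07, with chromosome 19 at the upper end. The shift was not carried by the called genes, since the chromosome 6 genes that were not called had a median of 0.08, and those of at least 5 FPKM had a median of 0.09. In 10 bins of 15 Mb along the chromosome, the median lay between 0.06 and 0.13. Each gene was also set against its mean over the 6 libraries and against the library's own median, and the median of chromosome 6 was then 0.04, 0.03 and 0.05 in OEA8_67 replicates 1, 2 and 3, and -0.04, -0.04 and -0.05 in OEA8_Ctrl replicates 1, 2 and 3. All 3 OEA8_67 libraries were thus above all 3 OEA8_Ctrl libraries, as they were by less on chromosomes 2, 8, 16 and 19, and they were below them on chromosomes 4, 9 and 11. On the same scale, chromosome 6 was at 0.032, 0.03 and 0.025 in OEA8_69 replicates 1, 2 and 3, also above all 3 OEA8_Ctrl libraries. The shift of chromosome 6 was thus not particular to OEA8_67. The median log2 fold change of chromosome 6 stayed between 0.09 and 0.11 when any 1 of the 6 libraries was left out. It lay 0.08 above the median of all tested genes in the deposited scaling and also with median-of-ratios scaling. DNA was not measured, and the reason for the shift was not tested.

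**Figure D5:**
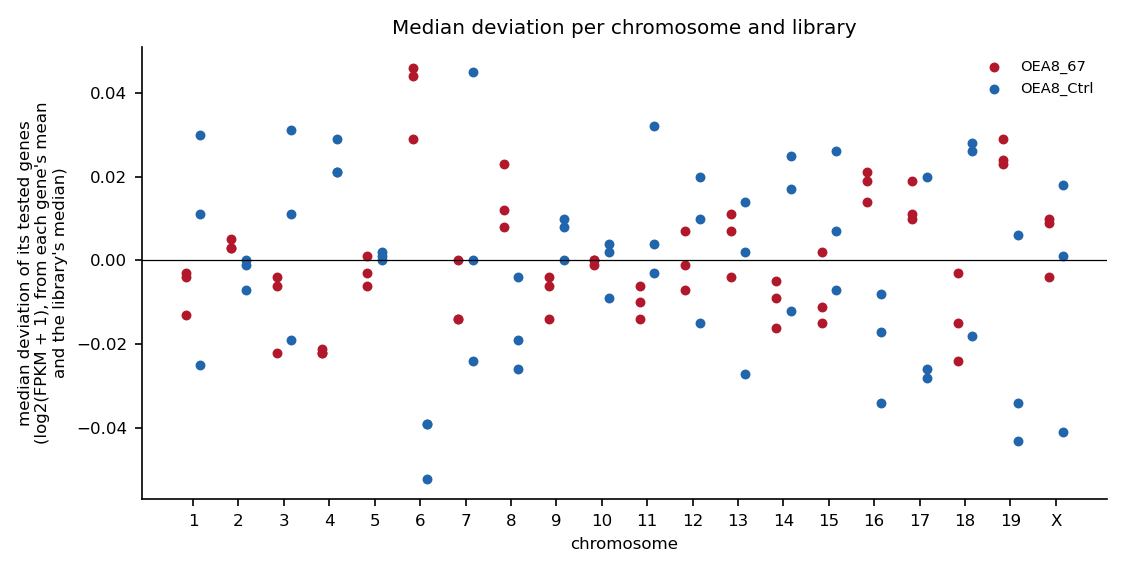
Median deviation of the tested genes of each of 20 chromosomes in log2(FPKM + 1), from each gene's mean and from the library's own median, with 1 point for each library of OEA8_67 (left) and OEA8_Ctrl (right). Chromosome 6 has the widest gap between the groups, with 0.03 to 0.05 in OEA8_67 and -0.05 to -0.04 in OEA8_Ctrl.

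Several of the genes named above lie there. Mcm2, Ncapd2, Foxm1, Polr1a and Igf2bp3 are on chromosome 6, and so are Ephb6, an ephrin receptor (0.28 ± 0.04), Bid, a pro-apoptotic protein (0.27 ± 0.05), Asns, asparagine synthetase (0.24 ± 0.04), and Cald1, caldesmon, an actin-binding protein that had 529, 530.1 and 549.9 FPKM in OEA8_67, against 465, 464 and 444 FPKM in OEA8_Ctrl (0.23 ± 0.04, limma adjusted p = 0.00593). Cav1, caveolin 1, was chosen after its values were seen as an abundant gene of this chromosome that went the other way, with 120.5, 124 and 119 FPKM in OEA8_67, against 158, 161 and 150.01 FPKM in OEA8_Ctrl (-0.37 ± 0.04, limma adjusted p = 0.000184), and it was not followed through the alternatives. Tgfa fell on this chromosome as well. Without chromosome 6, 319 of 11454 genes rose (2.79%) and 554 fell, and the division lists kept most of their increases, with 26 of 75 mitotic genes, 16 of 62 replication genes, 6 of 41 repair genes and 6 of 49 genes of ribosome biogenesis called higher.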

How the data were processed

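Libraries were sequenced on a DNBSEQ instrument. Bowtie2 2.2.5, HISAT2 2.0.4 and genome mm10 are listed in the submitters' processing notes. Gene levels came from RSEM per the study, in a version not given in the sources used here. For each gene and library the authors deposited FPKM values, and counts were not used here, so depth is unknown. Low values times transcript length fell on whole multiples of a library's best step in 46.6% to 61.8% of cases (within 0.15 of a step, where an even spread gives 30%), so whole reads were not recovered. The authors' group means served as a check of the columns.

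Log2(FPKM + 1) was fitted with limma 3.58.1 (R 4.3.3, moderated test with a trend, two-sided) over all 9 libraries as 3 groups, with Benjamini-Hochberg adjustment over the 12011 genes and no covariate. The fit was tested on simulated data with independent noise for each gene and library. Shifts shared by many genes of a library were not simulated, so that test does not cover them. Genes are named if they are among the 40 largest increases or decreases (called, no overlap, at least 3 FPKM in the higher group), among the 6 called members of smallest adjusted p in any of 63 lists, cell type markers, S100a8 or S100a9, and exceptions are stated. The members and lists were chosen with earlier results of these data known. Lists were described by counts and medians, without set tests. RefSeq names matched 19179 of 19240 identifiers, and 9646 of the tested genes matched a promoter of GRCm38.p6 (the first listed where a gene had several). Alternatives were other pseudocounts, filters, scalings and moderation, a model of 2 groups, a replicate block and leaving out each library. A few named genes are not reported here.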

Additional observations from a re-analysis of the deposited data

How the results depend on the processing

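No gene called in the main analysis changed sign under any of the 19 alternatives. Only the other scalings could have changed one. Elsewhere the sign was fixed, since the group difference stayed the same or the groups did not overlap for any called gene. Of the 311 named genes, 133 kept their call under each of the 19 alternatives. Another 61 kept it under the 18 in which they were tested, since 94 named genes were not tested with the filter at 5 FPKM. With only the 2 groups in the model, 636 genes were called, 196 of them higher. With a filter at 5 FPKM, 373 were lower and 13 changed by at least 1 on the log2 scale. A pseudocount of 0.1 or 0.5 FPKM gave 103 or 75 such genes. Leaving out 1 library gave 471 to 1064 called genes, 130 to 473 higher and 341 to 591 lower, with the fewest without OEA8_67 replicate 2 and the most without OEA8_Ctrl replicate 2. Replicate numbers did not pair the libraries (same-number correlations of -0.054, -0.073 and 0.070), and with a replicate block 733 genes were called. Median-of-ratios scaling gave 295 higher and 670 lower. Depth is unknown, so no limit from counting can be given.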
